A study of Homo sapiens with 6 samples.

Results

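The 60 genes described here encode ribosome biogenesis factors of the nucleolus, and they were chosen by name from a written list of small subunit processome, pre-40S, large subunit, snoRNP and other nucleolar proteins. All 60 had a 3′ UTR entry among the 25420 genes of the count tables, 57 had at least 1 read, 56 passed the filter on low counts in all reads, and 52 passed it in T > C reads. The data come from MOLM-13, a human acute myeloid leukemia cell line. Cells received C646 at 10 µM, an inhibitor of the acetyltransferases CBP and p300, or DMSO, the solvent control, for 2 h in all. In both groups 4-thiouridine (4sU) at 100 µM was present over the final 60 min, and 3 libraries were made per group. SLAM-seq reads that carry T > C conversions mark mRNA made while the label was present, so that each gene has a count of T > C reads (new mRNA) and a count of all reads (total mRNA). The comparison of C646 with DMSO asks how new mRNA changes when CBP and p300 are inhibited. Only 1 cell line was used, and the labels do not say that the 3 replicates were separate cultures, so that p-values measure the spread between these libraries, which may be technical.

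The libraries held 7252597 to 10225448 reads on 3′ UTRs, of which 477824 to 833410 were T > C reads. Over all genes, the share of T > C reads was 8.74 to 8.86% in DMSO and 6.34 to 6.71% in C646. All 8 myeloid marker genes looked up were at a median of 10 CPM or more, where CPM are reads scaled to the depth of the library on 3′ UTRs. None of 8 markers of other cell types reached this level. The summed level of those 8 other markers, 4 of which had 0 reads throughout, was 1.35 to 4.22 CPM in DMSO and 8.73 to 10.0 CPM in C646. Its part in the results below was not tested.

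Ribosomes are assembled in the nucleolus, where RNA polymerase I makes a long precursor rRNA. The small subunit processome, built from the UTP-A and UTP-B subcomplexes, the U3 snoRNP and many single factors, folds and cleaves the part that becomes the small subunit, while a separate series of factors, including the PES1, BOP1 and WDR12 (PeBoW) complex, matures the large subunit. Box C/D snoRNPs guide methylation of the rRNA and box H/ACA snoRNPs guide its pseudouridylation. Dividing leukemia cells depend on a high output of this pathway, and MYC is a well known activator of its genes through the E-box.

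T > C reads of the ribosome biogenesis factors, taken here as new mRNA, were lower in C646 in most members that could be tested. Whether cells of both groups took up the label alike was not tested. At an adjusted p of at most 0.01 and a log2 fold change of at least 1 in size, 34 of the 52 tested members fell in T > C reads, against 33.0% of the 7722 genes tested. None of the 52 rose, against 2.97% of all tested genes. Tested members held more T > C reads (a median of 56 in a library, against 35 for all tested genes). The part of this depth in the counts was not tested. DESeq2 called 0 higher as well, against 2.8% of all genes tested. No member was higher at an unadjusted p below 0.05, but the share of all tested genes at this p is not given here. The median log2 fold change was −1.32 over the tested members and −0.83 over all tested genes, and 50 of 52 members had a value below 0 (82.9% of all tested genes). In 44 of 52 members each C646 library was below each DMSO library, which held for 55.8% of all tested genes. The libraries were bulk RNA, so fewer cells with an mRNA and less of that mRNA per cell cannot be told apart.

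These counts set T > C reads against all reads of the library, which keeps a fall shared by most genes. Scaled on the T > C reads themselves, the median over all tested genes moved to 0.01. Of 54 members tested at this scaling, with a median of −0.47, 12 were lower, against 7.60% of the 7847 genes tested, and 2 were higher (NOP10 and NOP58), against 9.14%.

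**Figure D1:**
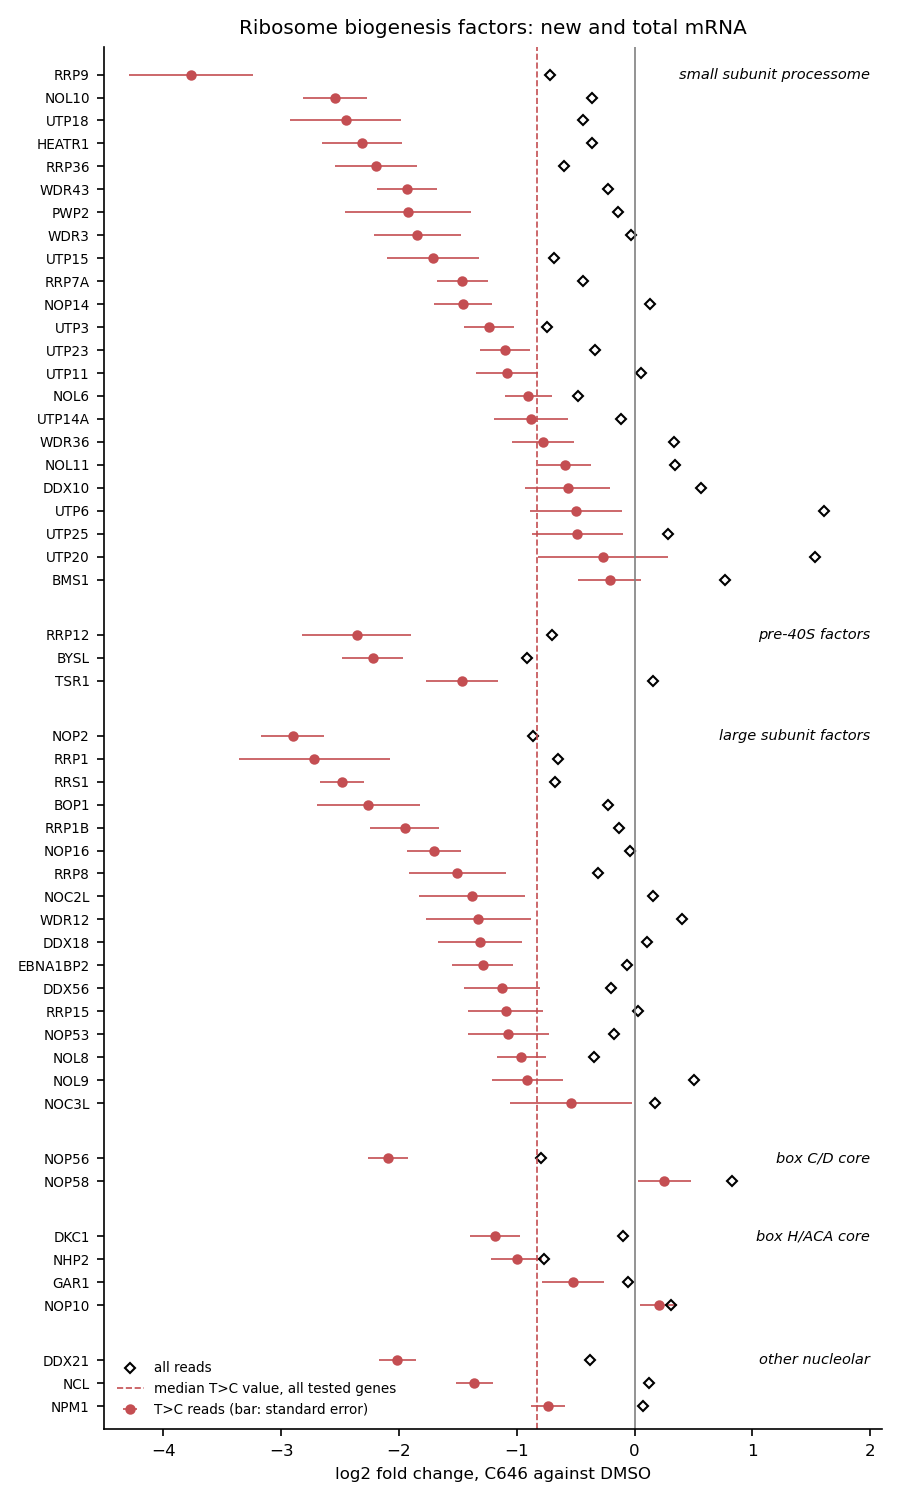
Log2 fold change of each tested member in C646 against DMSO, grouped by role. Red points are T > C reads with the standard error, open diamonds are all reads of the same gene, and the dashed line is the median T > C value of all tested genes (−0.83). Most red points lie left of the dashed line, while the diamonds lie on both sides of 0.

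The summed T > C reads of the 60 genes came to 1043 to 1071 CPM in the DMSO libraries and 477 to 496 CPM in the C646 libraries. The C646 mean was 46.2% of the DMSO mean, while T > C reads of all genes together were at 74.5%. All reads of the same 60 genes, by contrast, were at 94.0% of the DMSO mean. The groups did not overlap in the summed T > C reads.

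Promoter sequences from RefSeq (GRCh38.p14), from 250 bases before to 50 bases after the start of the gene, were found for 52 of the 60 members. The E-box CACGTG, a palindrome and so the same on both strands, was in 21 of these, or 40.4%. It was in 8.77% of the 27305 promoters of the table and in 13.8% of those of tested genes. The stretches below hold the E-box in capitals. They were picked by their values. RRP9, NOP2, BYSL and DDX21 are among those with the largest falls in new mRNA of their role, while NOP10 and UTP20 carry the same letters and did not pass the test. Other members with an E-box are not shown, such as UTP18 (−2.45), GAR1 (−0.53), NOC3L (−0.54) and UTP25 (−0.49). UTP18 and GAR1 are also among the largest falls of their role. The UTP20 value (−0.27) rests on few reads and was −1.01 without C646 replicate 1.
RRP9, chr3:51941892-51941921, minus strand: gggttcagctgcCACGTGagttctgcggcc
NOP2, chr12:6568242-6568271, minus strand: gctaggtccggattgCACGTGgagggccgc
BYSL, chr6:41921515-41921544, plus strand: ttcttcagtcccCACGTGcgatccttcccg
DDX21, chr10:68956604-68956633, plus strand: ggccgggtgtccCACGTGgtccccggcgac
UTP20, chr12:101280083-101280112, plus strand: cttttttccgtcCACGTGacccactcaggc
NOP10, chr15:34343130-34343159, minus strand: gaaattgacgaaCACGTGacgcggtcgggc
The first base of the E-box lay 5 bases before the start of RRP9, 31 before that of DDX21, 10 before that of UTP20 and 11 before that of NOP10. In NOP10 a further E-box began 170 bases before the start. In NOP2 and BYSL the E-box lay just after the start.

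Among tested members, 9 of 17 with an E-box were called lower in T > C reads (median −1.29) and 18 of 27 without one (median −1.23). The 2 medians were close to each other. The ETS core CCGGAA, searched on both strands, was in 55.8% of the members' promoters and in 39.6% of those of tested genes, and 18 of 25 tested members with it were lower (median −1.47) against 9 of 19 without it (median −1.001). The CCAAT box (CCAAT) was in 40.4% of members against 44.7% of tested genes, the GC box (GGGCGG) in 76.9% against 77.5%, and the TATA box (TATAAA) in 5.77% against 8.17%. The NRF1 core (GCATGC) was in 9.62% against 12.3%, and the YY1 core (AAGATGG) in 13.5% against 11.2%. With the CCAAT box 9 of 16 tested members were lower (median −1.06), and without it 18 of 28 (median −1.35). This split ran the other way from that of the ETS core. For the GC box 21 of 33 (−1.38) and 6 of 11 (−1.08) were lower, and for the NRF1 core 4 of 5 (−1.23) and 23 of 39 (−1.29). Only 2 tested members held the YY1 core and 2 the TATA box. How many of all tested genes with each motif were lower is not given here. These matches are descriptions of letters in a window and carry no test.

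The small subunit processome holds 29 of the members, of which 23 were tested in T > C reads. Of these, 14 fell and none rose, with a median log2 fold change of −1.23 and all 23 values below 0. RRP9, the U3 snoRNP protein that binds the U3 snoRNA, fell most. Its T > C reads were at 4.32, 4.71 and 7.41 CPM in DMSO and 0.265, 0.613 and 0.298 CPM in C646 (log2 fold change −3.76 ± 0.53 (SE), adjusted p = 9.21e-07), and the groups were far apart. The reads lie on a short 3′ UTR at chr3:51933426-51933505 (GRCh38, minus strand), and the C646 libraries held 2, 5 and 3 T > C reads, so that the size of this fall rests on few reads. NOL10, a WD-repeat protein of the processome, had 14, 15.2 and 14.5 CPM in DMSO and 2.38, 2.94 and 2.18 CPM in C646 (log2 fold change −2.54 ± 0.27 (SE), adjusted p = 1.02e-08), with both groups tight and no overlap. UTP18, of the UTP-B subcomplex, had 4.22, 4.99 and 7.81 CPM in DMSO and 0.265, 1.10 and 1.59 CPM in C646 (log2 fold change −2.45 ± 0.47 (SE), adjusted p = 8.43e-05), again without overlap.

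BMS1, the GTPase of the processome, and UTP20, a large scaffold protein, were at the other end. For BMS1 the T > C reads were at 9.27, 8.73 and 10.8 CPM in DMSO and 7.41, 5.64 and 11.6 CPM in C646 (log2 fold change −0.21 ± 0.27 (SE), adjusted p = 0.515), and C646 replicate 3 was above every DMSO library. UTP20 had 1.58, 1.80 and 2.02 CPM in DMSO and 2.78, 0.980 and 0.794 CPM in C646 (log2 fold change −0.27 ± 0.55 (SE), adjusted p = 0.695), with C646 replicate 1 the highest of the 6 libraries and the other 2 C646 libraries the lowest. Both values turned positive, to 0.61 and 0.57, when scaled on T > C reads, and neither passed the test.

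Within the processome, UTP-A had 3 of 4 tested members lower (median −1.82) and UTP-B 3 of 5 (median −1.84). HEATR1, the UTP-A scaffold, had 8.54, 9.84 and 9.16 CPM in DMSO and 1.85, 1.10 and 2.48 CPM in C646 (log2 fold change −2.31 ± 0.34 (SE), adjusted p = 2.03e-06). UTP6 of UTP-B had 3.16, 4.02 and 4.85 CPM in DMSO and 1.98, 3.68 and 2.78 CPM in C646 (log2 fold change −0.50 ± 0.39 (SE), adjusted p = 0.279), and C646 replicate 2 was above DMSO replicate 1. The value of UTP6 was 0.33 when scaled on T > C reads. Within UTP-B the values thus ran from −2.45 to −0.50.

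All 3 pre-40S factors fell, with a median of −2.22. RRP12, which takes part in export of the pre-ribosome, had 5.59, 8.04 and 3.64 CPM in DMSO and 1.98, 0.735 and 0.694 CPM in C646 (log2 fold change −2.36 ± 0.46 (SE), adjusted p = 9.76e-05). BYSL, a factor of small subunit maturation, had 15.4, 15.4 and 15.6 CPM in DMSO and 3.04, 3.92 and 2.98 CPM in C646 (log2 fold change −2.22 ± 0.26 (SE), adjusted p = 3.9e-08), and its DMSO libraries hardly differed. TSR1, a GTPase-like factor of late small subunit assembly, had 8.01, 9.98 and 10.4 CPM in DMSO and 4.76, 2.45 and 3.08 CPM in C646 (log2 fold change −1.47 ± 0.31 (SE), adjusted p = 0.000212). In each of the 3 genes the groups did not overlap. Without C646 replicate 1 the RRP12 value was −2.98. Scaled on T > C reads, RRP12 (−1.52) and TSR1 (−0.63) missed the threshold and BYSL (−1.39) passed.

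Of the 18 large subunit factors, 17 were tested, 12 fell and none rose, with a median of −1.33 and all 17 values below 0. NOP2, the rRNA cytosine methyltransferase, had 17.6, 23.4 and 17.4 CPM in DMSO and 2.91, 1.96 and 2.88 CPM in C646 (log2 fold change −2.90 ± 0.27 (SE), adjusted p = 4.04e-10). Its 3′ UTR lies at chr12:6556870-6557642 on the minus strand, and the lowest DMSO library was several times the highest C646 library. RRS1, which helps bring the 5S particle into the pre-60S, held the most T > C reads of this list, at 52.1, 50.7 and 49.8 CPM in DMSO and 9.92, 8.70 and 8.73 CPM in C646 (log2 fold change −2.48 ± 0.18 (SE), adjusted p = 5.02e-12). The RRS1 libraries agreed closely within each group.

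RRP1 and RRP1B are paralogues, and both fell. RRP1 had 2.74, 6.10 and 2.15 CPM in DMSO and 0.926, 0 and 0.694 CPM in C646 (log2 fold change −2.72 ± 0.64 (SE), adjusted p = 0.000732), with DMSO replicate 2 high and no T > C read in C646 replicate 2. Without DMSO replicate 2 the value was −2.15 and missed the threshold, as it did at −1.90 when scaled on T > C reads. RRP1B had 10.6, 9.98 and 10.6 CPM in DMSO and 3.17, 2.33 and 2.58 CPM in C646 (log2 fold change −1.95 ± 0.30 (SE), adjusted p = 3.13e-06). The log2 ratio of RRP1 to RRP1B was −1.51 ± 0.74 in DMSO and −1.74 ± 0.65 in C646 (SD, n = 3), a difference of −0.24 that is well within the spread (two-sided exact permutation p = 0.7, Benjamini-Hochberg 0.875 over 5 pairs). With each library left out in turn the difference ran from −0.52 to 0.18.

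In the PeBoW complex, BOP1 had 4.74, 4.30 and 6.19 CPM in DMSO and 0.926, 1.23 and 0.992 CPM in C646 (log2 fold change −2.26 ± 0.44 (SE), adjusted p = 8.61e-05) and did not overlap. Scaled on T > C reads, BOP1 was at −1.44 and missed the threshold. WDR12 had 3.48, 4.30 and 6.60 CPM in DMSO and 2.78, 0.613 and 2.28 CPM in C646 (log2 fold change −1.33 ± 0.45 (SE), adjusted p = 0.0136), which missed the threshold although the groups did not overlap. Without C646 replicate 1 the WDR12 value was −1.66 and passed, and WDR12 also passed with the replicate number as a block in the fit. PES1 was too low in T > C reads to be tested, with 1.26, 3.47 and 1.08 CPM in DMSO and 0.926, 1.84 and 0 CPM in C646. The log2 ratio of PES1 to BOP1 was higher by 0.93 in C646 (exact permutation p = 0.3, adjusted 0.5) and that of PES1 to WDR12 by 0.34 (p = 0.9, adjusted 0.9), and in both ratios the groups overlapped. The first difference was 1.53 without C646 replicate 3. NOC3L, which acts in early large subunit assembly, had the value nearest to 0 of the large subunit factors. It was at 2.74, 2.36 and 4.17 CPM in DMSO and 1.06, 0.735 and 4.36 CPM in C646 (log2 fold change −0.54 ± 0.52 (SE), adjusted p = 0.381), and C646 replicate 3 was above all DMSO libraries while the other 2 C646 libraries were below them. Without C646 replicate 3 the NOC3L value was −1.77 and passed.

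**Figure D2:**
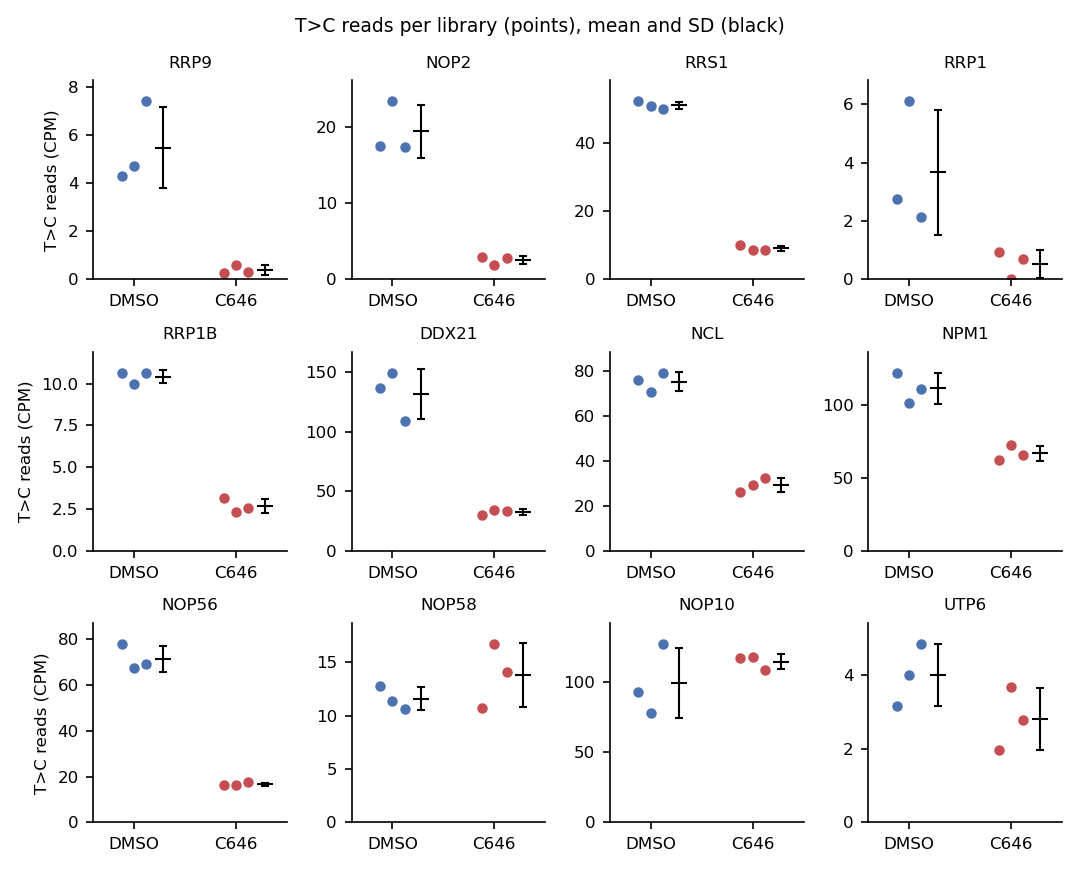
T > C reads in CPM in each library for 12 members, with DMSO in blue and C646 in red, and the mean and SD (n = 3) in black. The groups are apart in RRP9, NOP2, RRS1, RRP1, RRP1B, DDX21, NCL, NPM1 and NOP56, and they overlap in NOP58, NOP10 and UTP6.

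Set against each other, the small and large subunit lists had close medians, −1.23 and −1.33, and shares called lower of 14 of 23 and 12 of 17. In summed reads the picture differed somewhat. The small subunit processome held 259 to 278 CPM of T > C reads in DMSO and 110.0 to 121 CPM in C646. The large subunit factors held 194 to 214 CPM and 59.9 to 70.5 CPM. The ratio of small to large was 1.43, 1.24 and 1.28 in the DMSO libraries and 1.74, 1.84 and 1.71 in the C646 libraries, so that the groups did not overlap.

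RRS1 weighed on this ratio, since it made up 23.7 to 26.9% of the large subunit T > C reads in DMSO and 12.4 to 15.7% in C646. Without RRS1, a choice made after seeing the data, the ratio was 1.96, 1.62 and 1.69 in DMSO and 2.06, 2.15 and 1.95 in C646. C646 replicate 3 was then below DMSO replicate 1. In all reads the ratio was 0.84 to 0.93 in DMSO and 0.95 to 0.99 in C646.

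**Figure D3:**
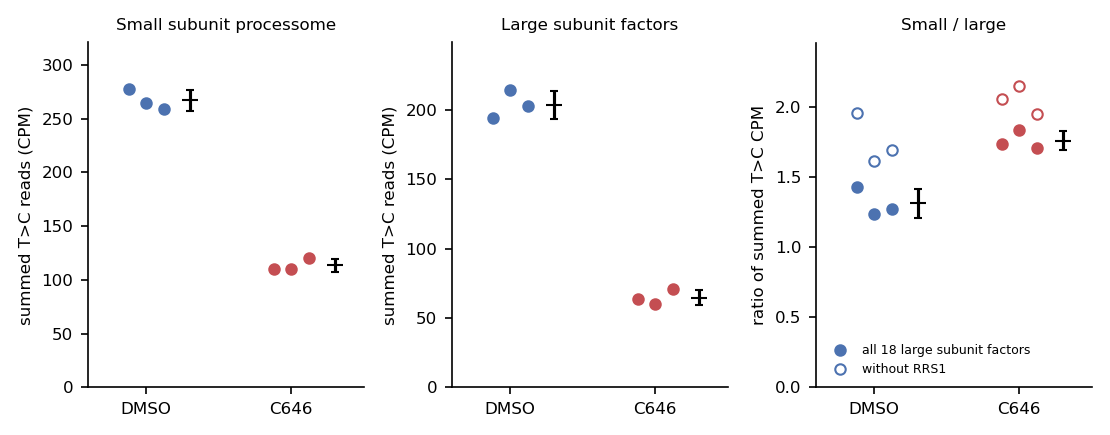
Summed T > C reads of the small subunit processome and of the large subunit factors in each library, and their ratio, with the mean and SD (n = 3) in black. Filled points in the ratio panel use all 18 large subunit factors and open points leave out RRS1, where the groups are closer and 1 C646 library (1.95) is just below 1 DMSO library (1.96).

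The box C/D core held the sharpest contrast between paralogues. NOP56 and NOP58 are related proteins that sit side by side in the same particle. NOP56 had 77.7, 67.2 and 69.1 CPM in DMSO and 16.4, 16.2 and 17.5 CPM in C646 (log2 fold change −2.10 ± 0.17 (SE), adjusted p = 2.58e-11), and every C646 library was far below the DMSO libraries. NOP58 had 12.8, 11.4 and 10.6 CPM in DMSO and 10.7, 16.7 and 14.1 CPM in C646 (log2 fold change 0.25 ± 0.22 (SE), adjusted p = 0.343), with overlapping groups. The log2 ratio of NOP56 to NOP58 was 2.57 ± 0.07 in DMSO and 0.28 ± 0.32 in C646 (SD, n = 3), a difference of −2.29. The groups did not overlap, and the two-sided exact permutation p of 0.1 is the smallest that 3 libraries against 3 can give (Benjamini-Hochberg 0.25 over 5 pairs). The 3′ UTR of NOP56 at chr20:2658295-2658393 is shorter, at 99 bases with 21 T, than that of NOP58 at chr2:202303437-202303661, at 225 bases with 74 T. FBL, the methyltransferase of the particle, was listed at 0 in all 6 libraries.

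The 4 box H/ACA core proteins were all tested, and 2 of them fell. DKC1, the pseudouridine synthase, had 20.8, 23.8 and 24.9 CPM in DMSO and 13, 8.70 and 9.03 CPM in C646 (log2 fold change −1.18 ± 0.21 (SE), adjusted p = 3.57e-05), without overlap. One of its entries overlaps a UTR of another gene. NHP2 had 20.8, 21.1 and 15.6 CPM in DMSO and 8.73, 9.93 and 10.0 CPM in C646 (log2 fold change −1.001 ± 0.22 (SE), adjusted p = 0.000297), just past the fold threshold and without overlap. The call was lost without DMSO replicate 1 (−0.94), DMSO replicate 2 (−0.93) or C646 replicate 1 (−0.94). It was also lost with the replicate number as a block in the fit (−0.99). DKC1 and NHP2 both missed the threshold when scaled on T > C reads (−0.35 and −0.17) or on all filtered reads of the library, those outside 3′ UTRs included (−0.98 and −0.79). GAR1 had 11, 7.76 and 12.3 CPM in DMSO and 9.13, 5.64 and 6.84 CPM in C646 (log2 fold change −0.53 ± 0.26 (SE), adjusted p = 0.0892), with C646 replicate 1 above DMSO replicate 2, and its value was 0.31 when scaled on T > C reads. The log2 ratio of DKC1 to GAR1 was 1.15 ± 0.36 in DMSO and 0.48 ± 0.10 in C646, without overlap (exact permutation p = 0.1, adjusted 0.25).

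NOP10, the smallest protein of the H/ACA core, had 93.5, 78.5 and 127 CPM in DMSO and 118, 118 and 109 CPM in C646 (log2 fold change 0.20 ± 0.16 (SE), adjusted p = 0.264), and the C646 values lay inside the DMSO range. It carried more T > C reads in C646 than any other member. The share of its reads with a T > C conversion was 37.1, 36.1 and 38.2% in DMSO and 35.9, 32.3 and 35.9% in C646. Conversions per T > C read in NOP10 were 1.44, 1.57 and 1.44 in DMSO and 1.17, 1.16 and 1.21 in C646. What the lower number of conversions means for its share of T > C reads was not tested. The part of sequencing errors or variants in the NOP10 T > C reads, and so in the H/ACA sum, was not tested either.

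The other nucleolar members encode proteins with roles beyond ribosome assembly. DDX21, an RNA helicase of rRNA transcription and processing, had 137, 149 and 109 CPM in DMSO and 29.9, 34.3 and 33.4 CPM in C646 (log2 fold change −2.01 ± 0.16 (SE), adjusted p = 1.63e-11). Nucleolin (NCL), a histone chaperone and RNA-binding protein, had 75.8, 70.8 and 79.2 CPM in DMSO and 26.1, 29.2 and 32.6 CPM in C646 (log2 fold change −1.36 ± 0.16 (SE), adjusted p = 4.91e-08). Nucleophosmin (NPM1), a chaperone often mutated in myeloid leukemia, had 122, 101 and 111 CPM in DMSO and 62.4, 72.3 and 65.8 CPM in C646 (log2 fold change −0.74 ± 0.15 (SE), adjusted p = 0.000109). The groups did not overlap in any of the 3 genes, but the NPM1 value was under the fold threshold and was 0.10 when scaled on T > C reads. NCL was then at −0.53 and missed the threshold, while DDX21 (−1.18) passed. Multimapped reads made up 10.3% of NPM1 and 14.0% of NOL11, against at most 1.19% in the rest, so that reads from near-identical copies could be counted in those 2 genes.

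Total mRNA changed in few members. Over 56 members tested in all reads, none was called lower (1.87% of the 10835 tested genes) and 3 were called higher (5.92%). At an unadjusted p below 0.05, 21 were lower, against 20.5% of all tested genes, and DESeq2 called 1 lower, TBL3, against 2.12%. Without C646 replicate 1 BYSL, NOC4L, NOP2 and TBL3 passed, at −1.03, −1.04, −1.02 and −1.68. The median was −0.13, against −0.0029 for all tested genes, and scaled on all filtered reads it was 0.080 against 0.20. On the adjusted p alone 9 members were lower, against 6.28% of all tested genes: RRP9, UTP3, RRP36, RRP12, BYSL, NOP2, RRS1, NOP56 and NHP2. All 9 were also called lower in T > C reads, which are part of all reads. BYSL had the lowest value of the 9 in all reads, with 74.4, 75.3 and 73.7 CPM in DMSO and 45.8, 40.6 and 32.2 CPM in C646 (log2 fold change −0.92 ± 0.16 (SE), adjusted p = 0.000753). NOP56 had 480.0, 468 and 441 CPM in DMSO and 294, 269 and 239 CPM in C646 (log2 fold change −0.79 ± 0.13 (SE), adjusted p = 0.000615).

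The 3 members with more total mRNA in C646 were processome factors. They made up 5.36% of the 56 members tested, near the 5.92% of all tested genes. WDR75 of UTP-A had 11.2, 7.35 and 18.9 CPM in DMSO and 27, 39.5 and 58.2 CPM in C646 (log2 fold change 1.74 ± 0.31 (SE), adjusted p = 0.000995). UTP6 had 32.9, 23.8 and 44 CPM in DMSO and 92, 101 and 113 CPM in C646 (log2 fold change 1.61 ± 0.19 (SE), adjusted p = 5.81e-05). UTP20 had 6.01, 4.57 and 7.27 CPM in DMSO and 16.4, 15.8 and 19.4 CPM in C646 (log2 fold change 1.53 ± 0.24 (SE), adjusted p = 0.000424). In each the lowest C646 library was above the highest DMSO library. On the adjusted p alone BMS1 (0.77) and NOP58 (0.83) were higher too. This made 5 of 56 members (8.93%), near the 9.86% of all tested genes. NOP58 in all reads was at 76, 57.7 and 93.4 CPM in DMSO and 129, 134 and 141 CPM in C646.

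The T > C odds compare T > C reads with other reads of the same gene within a library and need no scaling between libraries. By this measure 38 of 52 members fell, against 38.3% of all tested genes, and none rose (0.790%). None rose at an unadjusted p below 0.05 either, where the share of all tested genes is not given here. All 52 values were below 0 (92.0% of all tested genes), and the median was −1.48 against −1.004. Of the 38, 29 had also fallen in T > C reads and 9 had not, while 5 that fell in T > C reads did not pass in the odds.

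All reads above 0 with T > C reads below 0 were found in 18 of 52 members (34.6%). This was near the 33.2% of genes tested in both. UTP6 and UTP20 are 2 such members. Their T > C reads changed by −0.50 and −0.27, short of the test, while all reads rose, so that the odds were lower. In UTP6 the share of T > C reads was 9.62, 16.9 and 11% in DMSO and 2.16, 3.63 and 2.45% in C646 (log2 fold change −2.28 ± 0.34 (SE), adjusted p = 7.75e-06). In UTP20 it was 26.3, 39.4 and 27.8% in DMSO and 16.9, 6.20 and 4.08% in C646 (log2 fold change −2.28 ± 0.60 (SE), adjusted p = 0.00245). NHP2 was the reverse, since its share was 9.33, 10.3 and 8.68% in DMSO and 6.28, 8.09 and 10.6% in C646 and the groups overlapped (log2 fold change −0.22 ± 0.22 (SE), adjusted p = 0.384), while its T > C reads and all reads were both lower.

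**Figure D4:**
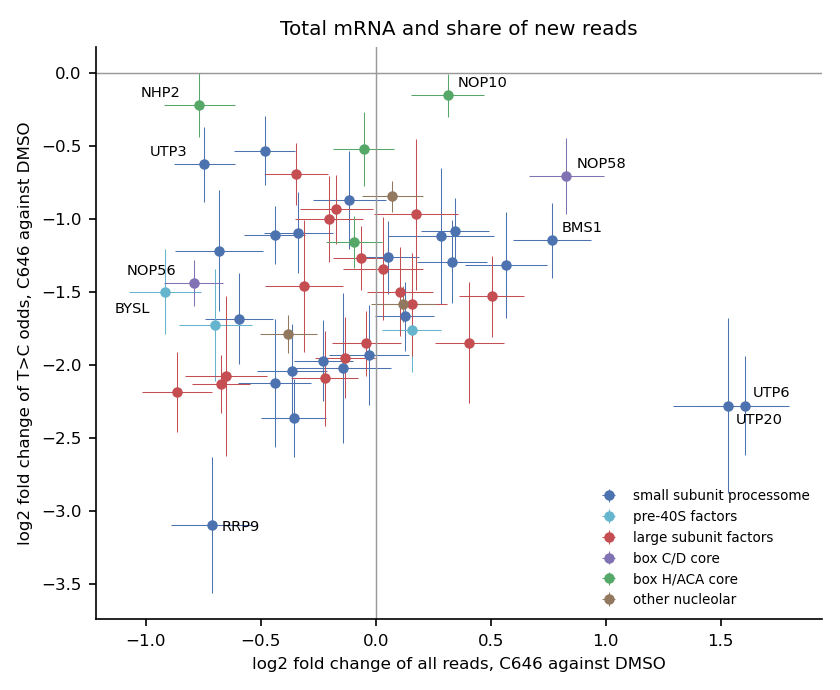
Log2 fold change of all reads (x axis) and of the T > C odds (y axis) for each member tested in both, C646 against DMSO, coloured by role, with standard errors. All points lie below 0 on the y axis, UTP6 and UTP20 stand apart at the right, and RRP9 is the lowest point.

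The median share of T > C reads was 13.5% over tested members in DMSO, close to the 13.3% over all tested genes, and 4.94% against 7.37% in C646. Members ranged from 2.03 to 37.4% in DMSO. Shares also differed between roles, with 17.3% for the summed H/ACA core, 14.8% for the small subunit processome and 10.1% for the large subunit factors. In C646 these were 17.0%, 6.58% and 3.61%, so the H/ACA sum, in which NOP10 gives most T > C reads, hardly moved.

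T > C reads of the members also carried fewer conversions. Over the 60 genes together there were 1.99 conversions per T > C read in DMSO and 1.52 in C646, a larger difference than the 2.05 and 1.90 over all genes. The number of conversions per 100 covered T positions was 0.751 in DMSO and 0.267 in C646 (0.650 and 0.423 over all genes). In DDX21 the conversions per T > C read were 2.48, 2.31 and 2.49 in DMSO and 2.11, 2.06 and 1.60 in C646, and in UTP23, a processome factor, 2.40, 2.09 and 2.04 in DMSO and 2.02, 2.12 and 2.13 in C646. DDX21 thus had lower values in C646, while UTP23 had overlapping groups. A few members, such as NOP56 in C646 replicate 3, had under 1 conversion per T > C read, so that the 2 deposited columns do not count over the same set of reads or bases. Which of these differs was not tested.

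The remaining 8 members could not be tested in T > C reads. FBL, NOP9 and WDR46 were listed at 0 in all reads of every library, and since FBL is a gene that every cell uses, these zeros are not read as low levels. UTP4 had 1 T > C read in all. The UTP4 entries are on the minus strand, while its RefSeq promoter is on the plus strand. TBL3, NOC4L, WDR75 and PES1 had reads but few with conversions. In NOC4L these were 12, 10 and 20 in DMSO and 0, 0 and 1 in C646, and in TBL3 2, 4 and 0 in DMSO and none in C646. All reads of TBL3 were at 8.75, 11.9 and 10.8 CPM in DMSO and 6.88, 4.53 and 2.08 CPM in C646 (log2 fold change −1.24 ± 0.35 (SE), adjusted p = 0.0161).

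Several members also hold snoRNA genes within their bounds. GENCODE placed 21 snoRNA genes inside 8 members (WDR43, NOL11, TSR1, NOP53, NOP56, NOP58, DKC1 and NCL), or 13.3% of the 60, against 2.25% of tested genes. Of these hosts 6 of 8 fell in T > C reads, and NOL11 (−0.59) and NOP58 (0.25) did not pass. Among all 52 tested members 34 fell, and 33.0% of all tested genes did. The libraries read 3′ ends, so they measure the host mRNA and not the snoRNA.

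A wider list of 83 further ribosome biogenesis factors, with 74 tested in T > C reads, had 39 lower and none higher, against 33.0% and 2.97% of all tested genes. Their median was −1.22, against −0.83 for all tested genes. The small subunit factors of this list had a median of −0.68 with 12 of 28 lower, and the large subunit factors −1.35 with 23 of 37 lower, so that the medians were further apart than among the members (−1.23 and −1.33). The remaining snoRNP assembly and nucleolar factors had a median of −1.02 with 4 of 9 lower. The difference between these lists was not tested. DESeq2 gave 37 lower, against 31.7% of all genes tested. At an unadjusted p below 0.05, 2 of the 74 were higher, and the share of all tested genes at this p is not given here. The 2 were RSL24D1 (0.47), a large subunit factor, and TRMT112, a methyltransferase cofactor. TRMT112 also passed on the adjusted p alone (log2 fold change 0.69 ± 0.18 (SE), adjusted p = 0.00181). The largest falls were in DDX31 (−3.40), a helicase of the nucleolus, FTSJ3 (−2.73), a methyltransferase of pre-rRNA, MYBBP1A (−2.70), a nucleolar MYB-binding protein, GNL3L (−2.68), a nucleolar GTPase, and PPAN (−2.65), a large subunit factor. In all reads 2 of 77 were lower, against 1.87% of all tested genes, and 4 were higher, near the share of all tested genes (5.92%). IMP3 (−1.20), of the U3 snoRNP, and PPAN (−1.06) were lower, and DDX47 (1.43), ABT1 (1.28), LTV1 (1.25) and MPHOSPH10 (1.05) were higher.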

How the data were processed

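SLAM-seq libraries were made from alkylated RNA with a 3′ end kit (QuantSeq), and the authors aligned reads to GRCh38 with slamdunk v0.4.1. They deposited, per 3′ UTR and library, raw counts of all reads, of T > C reads, of conversions and of multimapped reads. A signal, the coverage of T positions, and a CPM column scaled by the authors' software were deposited too. The table of C646 replicate 3 gives 0 for the T content of every 3′ UTR. The deposited T > C read counts include reads with 1 conversion, whereas the study called genes on reads with more, and libraries without 4sU were not analysed here, so that a background of T > C reads from sequencing errors or variants is contained in them.

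Counts were summed over the entries of each of 25420 genes, which were matched to symbols by Entrez identifier for 25310. edgeR 4.0.16 in R 4.3.3 (filterByExpr, glmQLFit, glmQLFTest) was used with Benjamini-Hochberg adjustment over all tested genes, and DESeq2 1.42.0 as an alternative. T > C reads were scaled by the library's total of all 3′ UTR reads after TMM, and CPM in the text use the same sizes. The T > C odds come from a joint fit of converted and unconverted reads per gene, with library as a factor and treatment acting on the converted reads. Calls needed an adjusted p of at most 0.01 and a log2 fold change of 1 or more in size. The median T > C count in a library was 56 for tested members and 35 for all tested genes, and no tested member had 3 or fewer T > C reads in every C646 library, the level taken as the floor. Pairs were compared as log2 ratios of CPM plus 0.5 by exact permutation. Of the 60 members, 54 have an entry ending within 20 bases of a transcript end in GENCODE 44. Python 3.11.15, pandas 2.3.3, numpy 2.4.6, scipy 1.17.1 and matplotlib 3.10.9 were used, and the fits were tested on simulated counts.

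The members, their roles and all lists were chosen with earlier results of these data known. Named are, among members whose T > C reads average at least 20 over the libraries, the 3 largest falls and the smallest fall of each role, the genes of 5 pairs, RRP1 and RRP9 (which the study measured by RT-qPCR), members called in all reads or called higher, the members not tested, and the 5 largest falls of the other factors. HEATR1, UTP6 in T > C reads, UTP20 in T > C reads, UTP23, NOL11 and members named on the adjusted p alone were named after their values were seen. The replicate numbers come from the labels, which do not say that they mark shared cultures.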

Additional observations from a re-analysis of the deposited data

How the results depend on the processing

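Scaling on the T > C reads themselves gave 12 of 54 members lower and 2 higher in T > C reads (7.60% and 9.14% of all genes tested), a member median of −0.47, small and large subunit medians of −0.34 and −0.50, and 12 other factors lower. It also turned BMS1 (0.61), GAR1 (0.31), NOC3L (0.27), NPM1 (0.10), UTP20 (0.57) and UTP6 (0.33) above 0. Scaling on all filtered reads gave 24 members lower (24.3% of all genes tested), medians of −1.11 for the members, −1.03 for the small and −1.12 for the large subunit, and it turned BMS1 in T > C reads (0.0027) and DKC1 (0.11), GAR1 (0.15) and RRP1B (0.072) in all reads above 0. The share of filtered reads on 3′ UTRs was 49.7 to 51.6% in DMSO and 56.3 to 62.0% in C646, and the cause of these shifts was not tested further. DESeq2 gave 33 members lower in T > C reads (31.7% of all genes tested), no filter 36 (20.1%), and counting 1 entry per gene, that with most reads, 34 (32.8%). Members lower in all reads numbered 1 with DESeq2 and 1 without the filter. Without the filter the small subunit median was −1.46 and lay 0.14 below that of the large subunit (a difference of −0.14, where the value reported was 0.09 in the other direction).

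Leaving out each library in turn gave 29 to 37 members lower in T > C reads (25 to 31.8% of all genes tested), 32 to 40 in the odds (28.2 to 38.3%), and 0 to 4 lower (1.05 to 2.97%) and 3 to 4 higher (4.05 to 6.40%) in all reads, the 4 lower without C646 replicate 1. The member median ranged from −1.39 to −1.24, the small subunit median from −1.41 to −1.13, the large subunit median from −1.58 to −1.20 and their difference from −0.10 to 0.32. The other factors lower ranged from 33 to 41. UTP20 in T > C reads ran from −1.01 to 0.056, the latter without C646 replicate 3. GAR1 in all reads ran from −0.13 to 0.037, above 0 without DMSO replicate 3, and NPM1 in all reads from −0.020 to 0.12, below 0 without DMSO replicate 2. The ratio difference of RRP1 to RRP1B ran from −0.52 to 0.18, that of PES1 to BOP1 from 0.52 to 1.53 and that of PES1 to WDR12 from −0.63 to 1.14 (leaving libraries out of pair ratios was added after seeing the data). With a pseudocount of 0.1 the first was −1.05 and the last −0.14, and the first was 0.29 with 2.

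Same-numbered libraries did not deviate together in T > C reads (correlations of 0.03 to 0.07 across 2843 genes) and only in part in all reads, so the numbers were not taken as pairs. With the replicate as a block, 35 members were lower in T > C reads (33.5% of all genes tested), 39 in the odds (35.8%), and 1 lower (2.14%) and 3 higher (6.46%) in all reads. NHP2 (−0.99) lost its call in T > C reads under the block, NOC2L and WDR12 (−1.41) gained one, and TBL3 was the member lower in all reads. Depth limits the members with few T > C reads, such as RRP9 and RRP1 in C646 and, among those not tested, TBL3, NOC4L, WDR75 and PES1.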
